A study of Mus musculus with 8 samples.

Results

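Cytosolic ribosomal protein genes encode the protein part of the ribosomes that translate nuclear messenger RNAs. They were taken as every gene whose symbol is Rpl or Rps followed directly by a digit, or Rplp0, Rplp1, Rplp2 or Rpsa, leaving out the ribosomal S6 kinases and pseudogene symbols, and only where a probe set carried 1 gene symbol. The rule found 106 probe sets of 50 genes, out of 34958 probe sets with 1 symbol, which cover 18194 genes. Of the 50 genes, 43 are ribosomal proteins and 6 are close paralogues of one (Rpl22l1, Rpl39l, Rpl3l, Rpl7l1, Rps27l and Rps4l). The remaining gene, Rps19bp1, meets the rule by its spelling but encodes a protein that binds RPS19 and is no ribosomal subunit component. Another 31 symbols that meet the rule, among them Rplp1, Rpl3 and Rpl5, occur only on probe sets annotated with several symbols and are not members.

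The study followed gene expression over 3 days in the optic fissure, the ventral gap of the optic cup that closes as the eye forms. Laser capture microdissection took this tissue out of sectioned, frozen wild-type mouse embryos, given as C57BL/6 in the strain label and as C57BL6/J in the protocol, with no transgene and no treatment. Embryonic days 10.5 (E10.5) and 11.5 (E11.5) had 3 arrays each and day 12.5 (E12.5) had 2, and an array held the pooled tissue of 3 embryos. The labels disagree on whether the pooled embryos shared a litter, and the arrays of a stage are called biological replicates, so p-values measure the spread between pools.

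A eukaryotic ribosome joins a large subunit, which holds the peptidyl transferase centre, to a small subunit, which reads the messenger RNA. Each protein is needed in a fixed ratio to the others and to ribosomal RNA, and growing embryonic tissue makes ribosomes at a high rate. Most of these messenger RNAs begin with a run of pyrimidines at the cap, the terminal oligopyrimidine (TOP) tract, through which mTOR signalling controls their translation.

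The values are deposited log2 signals, and a difference of 1 is a factor of 2. The median over all probe sets lay between 4.37 and 4.48 on the 8 arrays, but the 99th percentile ranged from 11.2 on array A of E11.5 to 12.9 on array A of E10.5. The arrays were therefore not on a common scale at the bright end, where most ribosomal protein probe sets lie, and each result is given on the deposited values and after quantile normalization, which forces the same distribution on every array. Of the 7 optic cup and fissure markers, 6 were tested, all but Pax2, and their mean log2 signal was between 8.80 and 10.2 on every array. The mean hides differences between them. From E10.5 to E12.5 after quantile normalization, 2 of the 6 were below 0, with Vax1 at -0.97 and Pax6 at 1.70. Markers of newborn neurons, at a mean of 3.46 to 3.77 on the arrays of E10.5 and E11.5, stood at 7.37 and 9.52 at E12.5. A probe set counts as called below when the adjusted p of limma's moderated test was under 0.05 over 27022 probe sets. Readings of single arrays, and overlaps between stages, are on the deposited values unless stated otherwise. The place of array A of E11.5 among the arrays can change after quantile normalization.

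Of the 106 probe sets, 95 of 46 genes passed the signal filter, a mean log2 signal of at least 3.94. The 4 genes with no probe set above it were Rpl39l, Rpl3l, Rps16 and Rps27. Rps16 and Rps27 encode core small subunit proteins, and the low signal is that of their only probe sets with 1 symbol, 1455835_at with a mean of 3.02 and 1460699_at with a mean of 3.77. For each gene the probe set with the highest mean represents the gene in counts, and 27 of the 46 representatives had a mean of at least 13. Of the tested genes, 22 encode large subunit proteins, 19 small subunit proteins, 4 are paralogues and 1 is Rps19bp1. Among the 106 probe sets, 40 carry the suffix _x_at and 3 the suffix _s_at, which mark probes that can also match other transcripts, and ribosomal protein genes have many processed copies in the genome, so which copy gave a signal is uncertain for these.

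The bases around the start of 6 genes are shown because 4 of them, Rps15, Rps25, Rplp0 and Rpl41, had called differences described below, while Rpl35 and Rps18 are bright members with no called difference. Each line gives 30 bases before the RefSeq start and the 30 bases from it on, 5′ to 3′ on the coding strand (assembly GRCm38.p6), with the longest run of C and T in capitals where it reaches 6 bases.
Rps15: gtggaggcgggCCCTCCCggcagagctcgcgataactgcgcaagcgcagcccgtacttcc
Rps25: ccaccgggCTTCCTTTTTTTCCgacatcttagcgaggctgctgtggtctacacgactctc
Rplp0: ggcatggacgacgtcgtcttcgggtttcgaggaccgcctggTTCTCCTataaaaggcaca
Rpl41: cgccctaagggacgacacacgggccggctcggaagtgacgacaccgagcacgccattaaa
Rpl35: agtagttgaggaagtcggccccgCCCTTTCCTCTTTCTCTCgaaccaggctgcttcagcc
Rps18: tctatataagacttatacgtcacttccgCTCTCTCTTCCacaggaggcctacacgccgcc
These windows are chr10:80292401-80292460 for Rps15, chr9:44407684-44407743 for Rps25 and chr5:115559437-115559496 for Rplp0, all on the plus strand. On the minus strand, the window of Rpl41 is chr10:128549139-128549198, that of Rpl35 is chr2:39005102-39005161 and that of Rps18 is chr17:33955636-33955695. The longest run has 18 bases at Rpl35, 14 at Rps25, 11 at Rps18 and 7 at both Rps15 and Rplp0, and the window of Rpl41 has none over 4. The 6 genes were picked by hand, so these lengths do not compare called with uncalled members.

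Promoter windows from 250 bases before to 50 after the RefSeq start were matched for 44 of the 50 genes, in 52 windows, and their letters were searched for 4 motifs. A run of at least 8 C or T within 30 bases of the start on the coding strand was present in 25 of the 52 windows (48.1%), against 22.5% of 21263 windows of protein-coding genes. CCGGAAG on either strand, the core of the sites of ETS factors, was present in 21 windows (40.4%), against 11.6% of the protein-coding windows. GGGCGG on either strand, the GC box, was present in 53.8% against 46.2%. TATAAA between 50 and 20 bases before the start was found in 1 window (1.92%), against 2.75%. In 1 of the 52 windows, that of Rpl35, the counted run shares bases with a reverse-strand match of GGGCGG, and matches of the other pairs of motifs shared no base in the windows of the members. The matches describe the window, not binding.

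The ribosomal protein genes were lower at E11.5 than at E10.5 on the deposited values, for each of the 46 genes, against 70.9% of all probe sets. Of the 156 other probe sets with a mean of at least 13, 97.4% were also lower. The median over the genes was -0.89 on the log2 scale. The median over all 27022 probe sets in the same comparison was -0.18. The median signal of the 46 genes was 13.81, 13.55 and 13.63 on the E10.5 arrays, 11.95, 13.004 and 13.42 on the E11.5 arrays and 13.44 and 13.18 on the E12.5 arrays. Array A of E11.5 was the lowest of all 8 and the other arrays of that stage also lay below those of E10.5. In such bulk tissue, fewer cells of a type and less RNA per cell cannot be told apart.

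**Figure D1:**
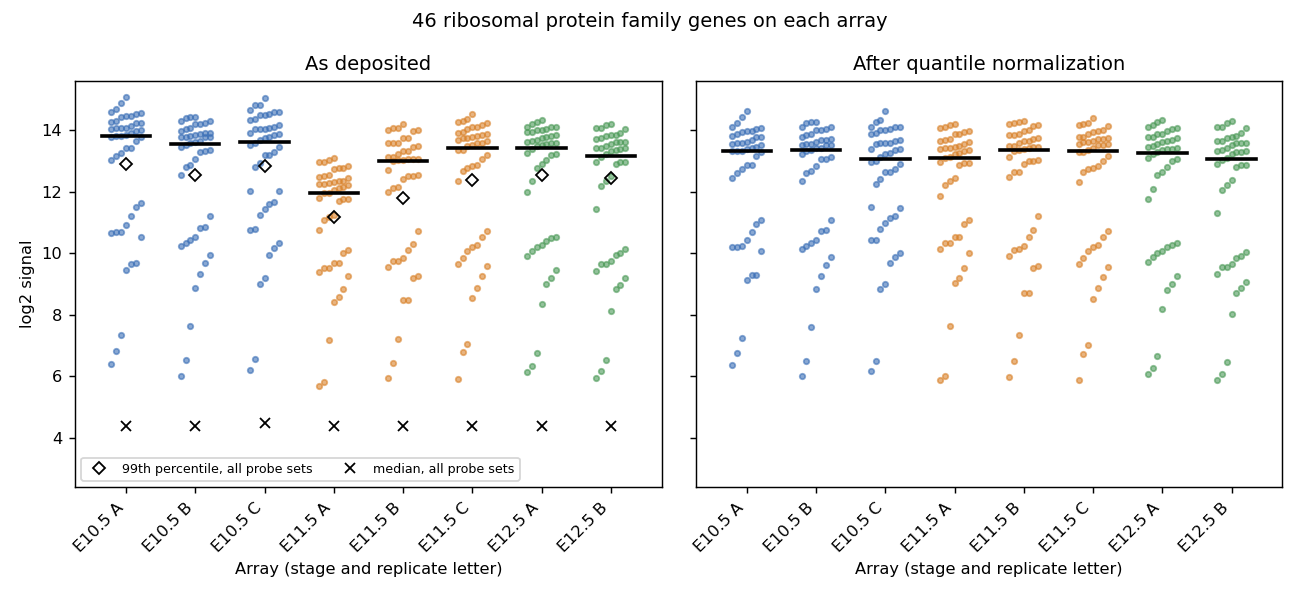
Log2 signal (vertical axis) of the 46 tested ribosomal protein family genes, 1 point per gene, on each of the 8 arrays (horizontal axis), as deposited on the left and after quantile normalization on the right; black bars are medians over the genes, and on the left diamonds and crosses mark the 99th percentile and the median of all probe sets. On the left the medians run from 11.95 on array A of E11.5 to 13.81 on array A of E10.5, while on the right they lie between 13.1 and 13.4.

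No member probe set was called between E11.5 and E10.5 by limma, against a background of 0.126% of all probe sets called in either direction. At an unadjusted p under 0.05, 46 of the 95 member probe sets were lower and 0 higher, against 16.0% of all probe sets lower and 3.4% higher. All E11.5 arrays lay below all E10.5 arrays for 67 of the 95 (70.5%), against 19.3% of all probe sets. Other bright probe sets had differences of like size. Among probe sets with a mean of at least 13, the median difference was -0.87 for 39 member probe sets and -0.91 for 156 others. Among those between 11 and 13 it was -0.89 for 16 members and -0.98 for 896 others. Without array A of E11.5 the median over the genes was -0.52, and after quantile normalization it was -0.07, with 34 of 46 genes below 0 against 53.3% of all probe sets. Limma then called 0 member probe sets, against a background of 0.17%, and 11 were lower at an unadjusted p under 0.05, against 5.28%.

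From E11.5 to E12.5 most deposited differences had the opposite sign. Of the 46 genes, 37 were above 0, with a median of 0.43 against 0.10 for all probe sets. None of the 95 member probe sets was called by limma, against a background of 1.82%, and at an unadjusted p under 0.05, 1 was higher and 1 lower, against 13.8% and 2.92% of all probe sets. Without array A of E11.5 the median was 0.07. After quantile normalization the sign turned, to a median of -0.09 with 33 genes below 0, against 54.9% of all probe sets, and 1 member probe set was called lower, Rps15 1416088_a_at, against a background of 0.496% called lower.

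The comparison of E12.5 with E10.5 does not involve array A of E11.5 except through the shared spread. Of the 46 genes, 45 were below 0 on the deposited values, against 57.6% of all probe sets, with a median of -0.48 against -0.08. Among probe sets with a mean of at least 13, 38 of the 39 members and 94.2% of the 156 others were below 0. Limma called 5 of the 95 member probe sets lower and 0 higher, that is 5.26% against a background of 1.56% called lower and 3.08% called higher. These were both probe sets of Rps15, 1 of 4 of Rpl41, 1 of 3 of Rpl7l1 and 1 of 2 of Rps4x. After quantile normalization the median was -0.19 against -0.06, 34 genes were below 0 against 55.7% of all probe sets, and 9 member probe sets (9.47%) were called lower and 0 higher, against a background of 2.38% lower and 3.72% higher. The 4 that joined were 2 further probe sets of Rpl41 and the only ones of Rplp0 and Rps25. On this scale the median signal of the 46 genes was 13.33, 13.35 and 13.07 on the E10.5 arrays. It was 13.27 and 13.07 on the E12.5 arrays, so the 2 stages overlapped.

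Every E12.5 array lay below every E10.5 array for 64 of the 95 member probe sets (67.4%) on the deposited values, against a background of 25.7%. After quantile normalization the count was 41 (43.2%), against 25.6%. The test of any stage difference, limma's F test, called 1 member probe set on the deposited values, Rpl41 1433530_at, against a background of 2.92%. On quantile normalized values it called 3, against 3.12%.

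**Figure D2:**
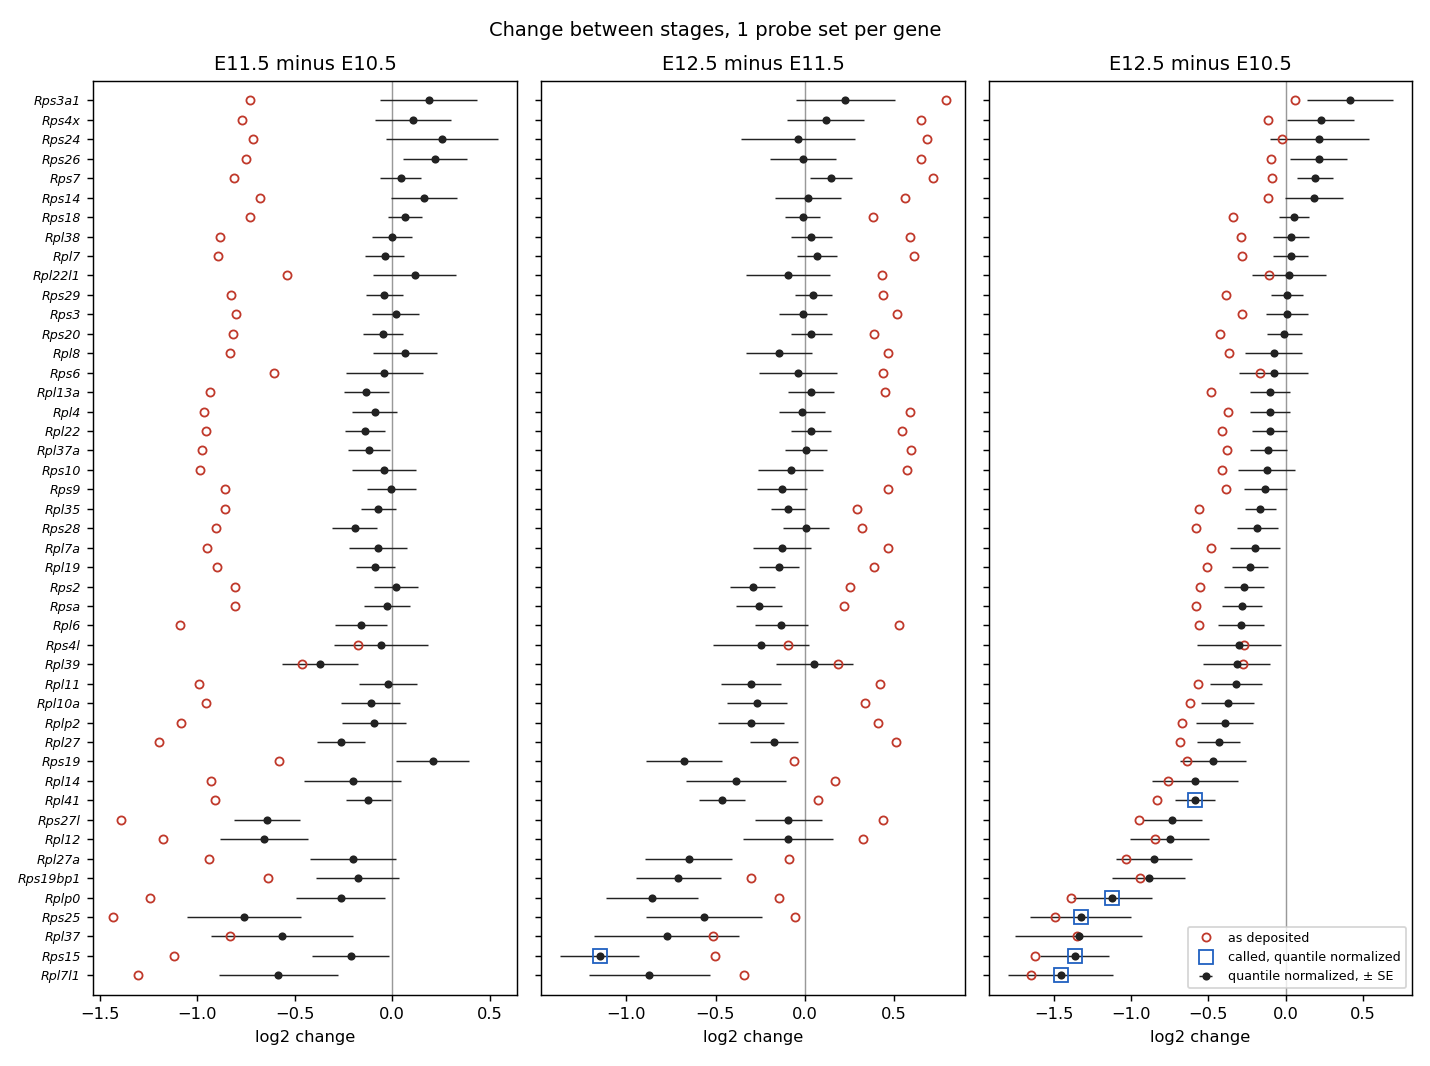
Log2 change between stages (horizontal axes) of the representative probe set of each of the 46 genes (rows, ordered by the quantile normalized change from E10.5 to E12.5); red rings are deposited values, black points quantile normalized values with the standard error of limma's fit, and blue squares mark probe sets called after quantile normalization. The red rings lie to the left of the black points in the first panel, with a median of -0.89 against -0.07, and Rpl7l1, Rps15, Rps25, Rplp0 and Rpl41 carry squares in the last.

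Among large subunit genes, Rplp0 encodes P0, the base of the stalk that recruits elongation factors. Its log2 signal was 13.04, 12.82 and 13.46 at E10.5, 10.74, 12.15 and 12.69 at E11.5, and 12.002 and 11.44 at E12.5. All E10.5 values were above all others, and the E11.5 and E12.5 values overlapped. The deposited difference from E10.5 to E12.5 was -1.39 with a standard error (SE) of 0.53 and was not called by limma (adjusted p = 0.153). After quantile normalization the values were 12.46, 12.61 and 12.90, then 11.87, 12.65 and 12.65, then 11.76 and 11.30, and the difference of -1.12 (SE 0.26) was called (adjusted p = 0.0355 by limma). There the E12.5 values lay below all others, and 1 of the E11.5 values lay below the E10.5 range. Rplp0 is often used as a reference gene in quantitative PCR. Rplp2, which encodes a P protein bound to that stalk base, differed by -0.67 (SE 0.48) from E10.5 to E12.5 on deposited and by -0.39 (SE 0.18) on quantile normalized values, and neither was called.

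Rpl41 encodes a very short, basic peptide of the large subunit. Its brightest probe set, 1422623_x_at, read 14.31, 14.22 and 14.50 at E10.5, 12.75, 13.76 and 13.79 at E11.5, and 13.61 and 13.41 at E12.5. The E12.5 values lay below the E10.5 values and within the range of E11.5. The difference from E10.5 to E12.5 was -0.83 (SE 0.44) on deposited values and -0.59 (SE 0.13, limma adjusted p = 0.031) on quantile normalized values. The probe set 1433530_at, whose suffix marks no shared probes, read 10.21, 9.46 and 10.45, then 8.28, 8.94 and 8.90, then 8.66 and 8.46. It was higher at E10.5 than on any later array, and its difference was -1.48 (SE 0.36, limma adjusted p = 0.0381), or 2.79-fold lower at E12.5. All 4 Rpl41 probe sets were below 0 from E10.5 to E12.5, between -1.48 and -0.63 deposited and between -1.36 and -0.36 after quantile normalization.

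Rpl11 encodes a protein of the 5S particle, which also binds MDM2 when ribosome assembly fails. It read 13.18, 12.54 and 12.79 at E10.5, 11.07, 12.12 and 12.34 at E11.5 and 12.34 and 12.19 at E12.5. Its difference from E10.5 to E12.5 was -0.57 (SE 0.43) deposited and -0.32 (SE 0.17) after quantile normalization. Rpl27 had 3 tested probe sets, all below 0 by between -0.68 and -0.38 deposited and between -0.44 and -0.18 after quantile normalization. None of the Rpl11 or Rpl27 probe sets was called.

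Rpl37 and Rpl39 had dimmer representatives. Rpl37 1438291_x_at read 7.36, 7.63 and 8.99 at E10.5, 7.20, 7.22 and 7.06 at E11.5 and 6.76 and 6.53 at E12.5. Its deposited E10.5 values lay above the others and spread by over 1 log2 unit, with array C the highest. After quantile normalization array A of E11.5, at 7.62, lay above arrays A and B of E10.5, at 7.25 and 7.59. Its deposited difference from E10.5 to E12.5 of -1.35 (SE 0.40) was not called by limma (adjusted p = 0.0804). Rpl12 1435655_at, the next large subunit gene by signal, differed by -0.85 (SE 0.34) deposited and -0.75 (SE 0.25) after quantile normalization. Rpl35, the brightest large subunit gene, had 6 tested probe sets, all below 0 from E10.5 to E12.5, by between -0.70 and -0.40 deposited and between -0.52 and -0.13 after quantile normalization. None of these was called.

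Among small subunit genes, Rps15 encodes a protein of the subunit's head. Its probe set 1416088_a_at read 11.64, 11.22 and 12.02 at E10.5, 10.09, 10.71 and 10.71 at E11.5 and 10.26 and 9.75 at E12.5. The E10.5 values stood above all others, and the later stages overlapped. From E10.5 to E12.5 the difference was -1.62 (SE 0.37), a 3.07-fold lower signal with a limma adjusted p of 0.0313. The other probe set, 1416089_at, read 9.50, 9.26 and 9.69, then 8.74, 9.05 and 8.82, then 8.57 and 8.201. In it the 3 stages did not overlap, and the difference was -1.10 (SE 0.28, limma adjusted p = 0.0495).

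After quantile normalization the difference of Rps15 1416088_a_at from E10.5 to E11.5 was -0.21 (SE 0.20) and was not called. From E11.5 to E12.5 it fell by 1.15 on the log2 scale (SE 0.22, limma adjusted p = 0.0354). The quantile normalized values were 11.08, 11.09 and 11.49 at E10.5, 11.07, 11.23 and 10.72 at E11.5 and 10.06 and 9.65 at E12.5, so that the E12.5 arrays lay below both earlier stages, which overlapped. On the deposited values the same step was -0.50 (SE 0.37) and was not called. Both Rps15 probe sets carry suffixes that mark no match to transcripts of other genes.

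Rps25 encodes a small subunit protein known for its part in internal ribosome entry. Its only probe set, 1430978_at, read 10.68, 9.95 and 11.44 at E10.5, 9.25, 9.25 and 9.26 at E11.5 and 9.20 and 9.19 at E12.5. On the deposited values the later arrays were almost level and all lay below the E10.5 arrays, which spread widely. The difference from E10.5 to E12.5 was -1.49 (SE 0.39, limma adjusted p = 0.0517) deposited and -1.32 (SE 0.33, limma adjusted p = 0.044) after quantile normalization.

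Rps4x encodes an X-linked protein of the small subunit, and its probe sets gave different values. The bright one, 1416276_a_at, read 14.06, 13.92 and 13.59 at E10.5, 12.06, 13.32 and 13.87 at E11.5 and 13.86 and 13.62 at E12.5, with the ranges of E10.5 and E12.5 overlapping. Its difference from E10.5 to E12.5 was -0.12 (SE 0.51) deposited and 0.23 (SE 0.22) after quantile normalization. The dim one, 1420303_x_at, read 4.88, 4.74 and 5.24, then 4.45, 4.49 and 4.65, then 4.10 and 4.02, and was called at -0.89 (SE 0.20, limma adjusted p = 0.028). That probe set lies close to the array median of about 4.4 and its suffix marks shared probes, so the called difference cannot be assigned to Rps4x.

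**Figure D3:**
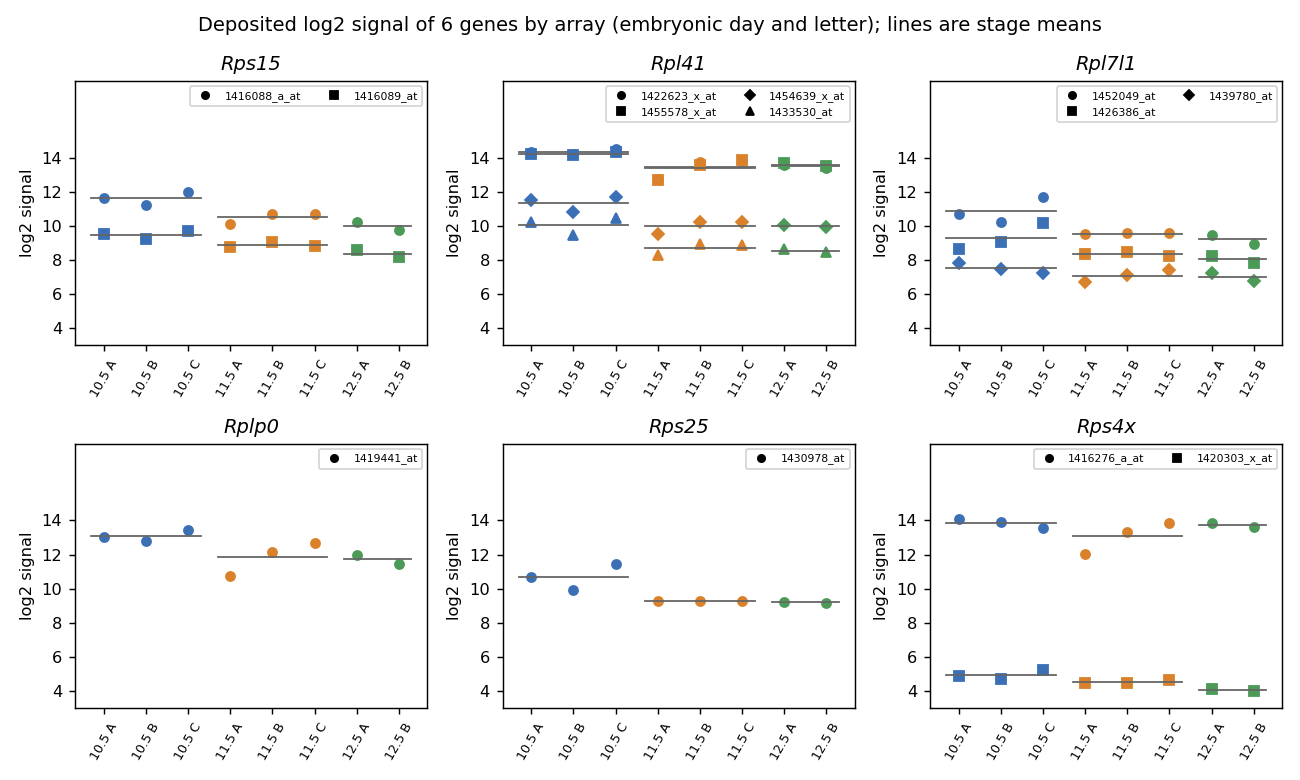
Deposited log2 signal (vertical axis) of every tested probe set of the 6 genes with a called difference from E10.5 to E12.5 on either scale, by array (horizontal axis, embryonic day and replicate letter); symbols mark probe sets and grey lines stage means. In Rps15, Rpl41, Rplp0 and Rps25 the E10.5 points lie above the E12.5 points, while the bright probe set of Rps4x reads 13.59 to 14.06 at E10.5 and 13.62 and 13.86 at E12.5.

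The small subunit also held most of the representatives with deposited differences from E10.5 to E12.5 nearest to or above 0. Rps3a1 read 13.96, 13.79 and 13.19 at E10.5, 11.80, 13.05 and 13.90 at E11.5 and 13.80 and 13.61 at E12.5, and its difference from E10.5 to E12.5 was 0.06 (SE 0.56) deposited and 0.41 (SE 0.28) after quantile normalization. Its representative was the only one above 0 on the deposited values. Single probe sets of Rps20, Rpl22, Rps24 and Rps9 also lay above 0, at up to 0.35, 0.14, 0.05 and 0.02. Rps24, which is mutated in some patients with Diamond-Blackfan anaemia, had 5 tested probe sets between -0.20 and 0.05 deposited and between -0.18 and 0.22 after quantile normalization. Rps26 differed by -0.10 (SE 0.44) and 0.21 (SE 0.18), and Rps7 by -0.09 (SE 0.47) and 0.19 (SE 0.12), on the deposited and quantile normalized scales. None of these was called by limma, and the ranges of E10.5 and E12.5 overlapped in all 4 representatives.

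Rps6, the substrate of the S6 kinases, read 9.67, 9.68 and 10.17 at E10.5, 8.85, 9.21 and 9.65 at E11.5 and 9.91 and 9.44 at E12.5, with E10.5 and E12.5 overlapping. Its difference from E10.5 to E12.5 was -0.16 (SE 0.34) deposited and -0.08 (SE 0.22) after quantile normalization. Rps19, the gene most often mutated in Diamond-Blackfan anaemia, read 10.92, 10.86 and 10.78, then 9.998, 10.30 and 10.53, then 10.49 and 9.94. Its E10.5 values were above all later ones, and its differences of -0.64 (SE 0.32) deposited and -0.47 (SE 0.21) after quantile normalization were not called. Rpsa, the laminin receptor precursor that sits on the small subunit, differed by -0.58 (SE 0.49) and by -0.28 (SE 0.13), also not called. The bright members Rps18, Rps20, Rps28 and Rps29 had representatives between -0.58 and -0.34 deposited and between -0.18 and 0.05 after quantile normalization.

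Counts of genes below 0 were also taken by subunit, as a description with no test. After quantile normalization the median from E10.5 to E12.5 was -0.30 for the 22 large subunit genes, with 20 below 0. It was -0.01 for the 19 small subunit genes, with 10 below 0. Over all probe sets the median was -0.06, with 55.7% below 0. On the deposited values the medians were -0.56 and -0.39, with 22 of the 22 large and 18 of the 19 small subunit genes below 0. Over all probe sets 57.6% were below 0 on that scale. The median of the large subunit genes minus that of the small subunit genes within each array was -0.26, -0.25 and 0.18 at E10.5, -0.23, -0.31 and -0.42 at E11.5 and -0.35 and -0.44 at E12.5. Array C of E10.5 was the only one above 0, and arrays A and B of E10.5 overlapped with those of E11.5. The sets hold different probe sets, so only the change of this gap between arrays, not its sign, bears on expression.

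Array C of E10.5 also held the highest value of all 8 arrays for all 9 probe sets called on either scale, on the deposited values. It held the highest value for 45 of the 95 member probe sets (47.4%) and for 31.5% of all 27022. After quantile normalization it held the highest value for 8 of the 9, and array B of E12.5 held the lowest for 8 of the 9. That E12.5 array held the lowest value for 46 of the 95 member probe sets (48.4%) and for 20.6% of all. Without array C of E10.5 the differences of the called probe sets stayed below 0. For Rps15 1416088_a_at the value was then -1.43 (SE 0.37, limma adjusted p = 0.0616) deposited and -1.21 (SE 0.20, limma adjusted p = 0.011) after quantile normalization. For Rps25 it was -1.12 (SE 0.31) and -0.99 (SE 0.24, limma adjusted p = 0.043), and for Rplp0 -1.21 (SE 0.60) and -0.997 (SE 0.26, limma adjusted p = 0.0526).

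The deposited calls were lost when single arrays were left out. Of the 5, only the dim Rps4x probe set stayed called without array A of E10.5 (limma adjusted p = 0.0401), where 2 member probe sets were called in all. It was also the only one that stayed called without array C of E10.5 (limma adjusted p = 0.0442). Without array B of E11.5, 0 member probe sets were called. On quantile normalized values the 9 calls became 3 without array B of E11.5, 1 without array A of E12.5 and 0 without array B of E12.5, and a fit with 1 array left at E12.5 assumes that it varies like the other stages. Each of the 9 probe sets stayed below 0 with every array left out in turn.

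The differences were not spread evenly over the signal range. Among the 22 member probe sets with a mean between 9 and 11, the median difference from E10.5 to E12.5 was -0.73 deposited and -0.57 after quantile normalization, and 20 and 18 of them were below 0. The 2549 other probe sets in this range had medians of -0.13 and -0.03. Between 7 and 9 the 8 member probe sets had medians of -0.93 and -0.86, with 7 below 0 on either scale. The 5618 others there had medians of -0.03 and -0.04. Among probe sets with a mean of at least 13, the 39 members had medians of -0.41 and -0.11 and the 156 others -0.35 and -0.01. Rps15, Rps25, Rpl7l1, Rpl12, Rpl14, Rpl27a, Rps19 and Rps27l are the genes of the range from 9 to 11 whose representatives lay at or below -0.47 after quantile normalization. Rps6 and Rpl22l1 are those of that range that lay above it.

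**Figure D4:**
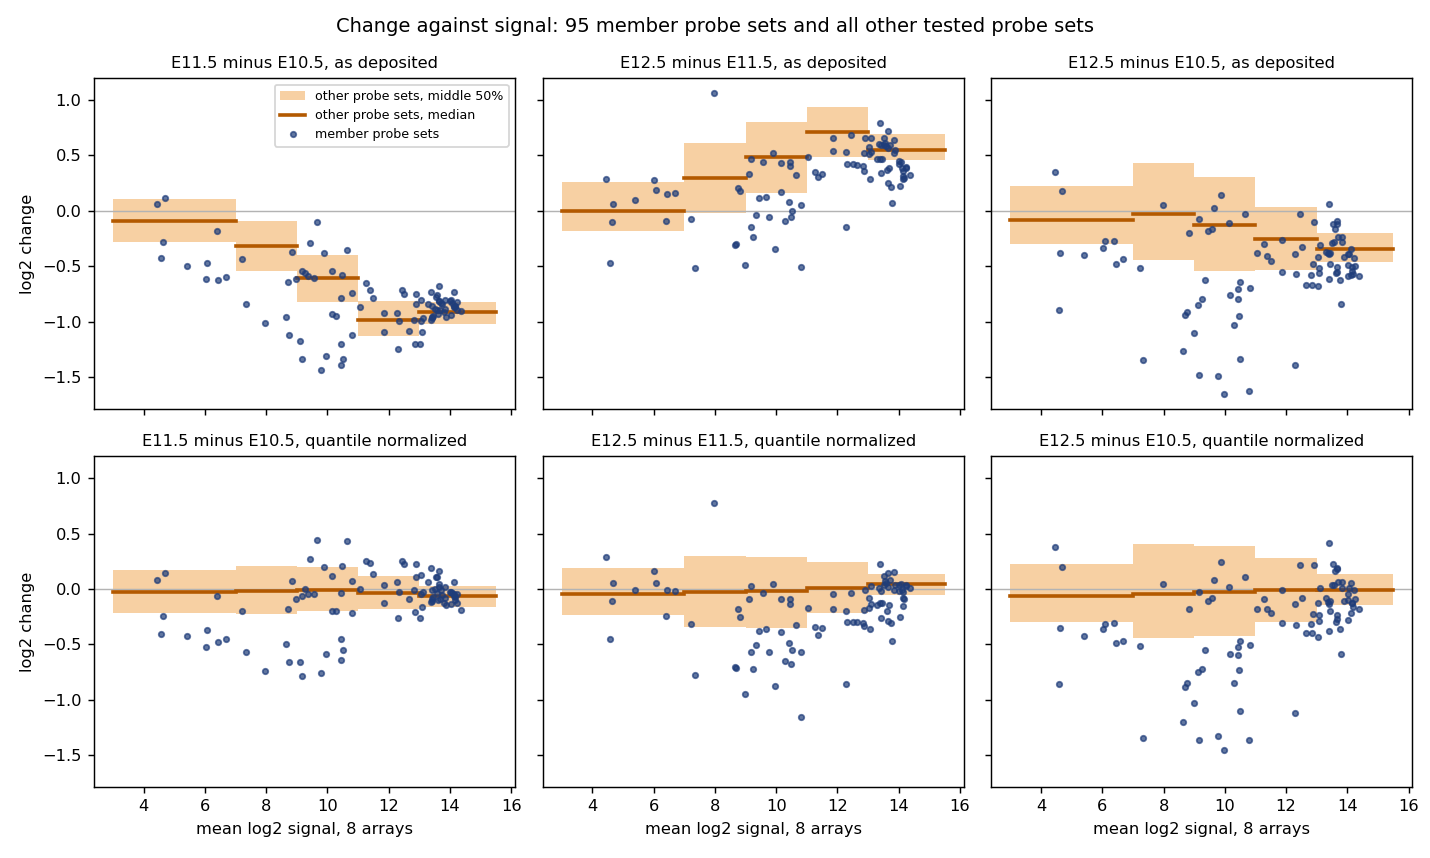
Log2 change (vertical axes) against the mean log2 signal over 8 arrays (horizontal axes) for the 95 tested member probe sets (blue points), with the median (brown line) and the middle 50% (shading) of all other tested probe sets in 5 ranges of signal; columns are the 3 comparisons, the upper row is deposited and the lower row quantile normalized. At a mean of at least 13 the members follow the other probe sets, with -0.87 against -0.91 in the first panel, and between 9 and 11 many members lie below the shading in the last column.

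Among the paralogues, Rpl7l1 encodes a paralogue of the large subunit protein RPL7 that takes part in ribosome assembly. Its probe set 1452049_at read 10.68, 10.24 and 11.67 at E10.5, 9.53, 9.57 and 9.57 at E11.5 and 9.46 and 8.97 at E12.5. On the deposited values all E10.5 arrays were above the rest, which after quantile normalization did not hold for array A of E11.5. The difference from E10.5 to E12.5 was -1.65 (SE 0.40, limma adjusted p = 0.0401) deposited and -1.46 (SE 0.34, limma adjusted p = 0.0379) after quantile normalization. Its other probe sets were at -1.26 (1426386_at) and -0.51 (1439780_at) deposited and were not called, a range of 1.14 within the gene. Rpl7 itself had 3 probe sets between -0.31 and -0.28 deposited and between -0.09 and 0.03 after quantile normalization.

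Rps27l, a p53 target in mammals, had 3 tested probe sets below 0 from E10.5 to E12.5, by between -0.95 and -0.79 deposited and between -0.84 and -0.59 after quantile normalization, none called. Its representative 1450925_a_at read 11.21, 10.82 and 11.60 at E10.5, 9.51, 9.74 and 10.20 at E11.5 and 10.40 and 10.12 at E12.5, and E10.5 lay above both other stages. Rpl22l1 1417126_a_at, from a gene whose protein can replace RPL22 in the ribosome, read 10.65, 10.52 and 9.95 at E10.5, 9.38, 9.86 and 10.27 at E11.5 and 10.54 and 9.996 at E12.5. Its stages overlapped, and its difference from E10.5 to E12.5 was -0.11 (SE 0.37) deposited and 0.02 (SE 0.24) after quantile normalization. The representative of Rpl22 differed by -0.41 (SE 0.48) and -0.10 (SE 0.11).

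Rps4l read between 5.81 and 6.83 on the 8 arrays and Rpl39 between 5.68 and 6.55, and neither was called in any comparison. Rpl39l, active mainly in testis, and Rpl3l, active mainly in heart and skeletal muscle, read between 2.92 and 4.47 on all arrays and were below the filter. Rps19bp1, which is no ribosomal protein, read 9.47, 8.87 and 9.18 at E10.5, 8.57, 8.48 and 8.56 at E11.5 and 8.35 and 8.13 at E12.5. Its stages did not overlap on the deposited values, and the difference from E10.5 to E12.5 of -0.94 (SE 0.28) was not called by limma (adjusted p = 0.0778).

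Where a gene had more than 1 tested probe set, as 21 genes did, the probe sets often differed in sign after quantile normalization. From E10.5 to E12.5 the median range within a gene was 0.30, the largest was 1.14, at Rpl7l1, and 4 of the 21 genes had probe sets of both signs on the deposited values and 10 after quantile normalization. From E11.5 to E12.5 the largest was 1.12, at Rps4x.

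Genes that work beside the ribosomal proteins were read from 4 lists. Of 22 tested translation factors and other TOP mRNA genes, 0 were called on deposited values from E10.5 to E12.5, with a median of -0.21 and 16 below 0 (72.7%). Over all probe sets 1.56% were called lower, 57.6% were below 0 and the median was -0.08. After quantile normalization 3 (13.6%) were called lower, with a median of 0.07 and 9 below 0 (40.9%), against 2.38% called lower, 55.7% below 0 and a median of -0.06 for all probe sets. The 3 were Fau, whose product is a fusion of a ubiquitin-like protein and the ribosomal protein S30, at -1.04 (SE 0.19, limma adjusted p = 0.0158), Eef1d, an elongation factor subunit, at -1.03 (SE 0.22, limma adjusted p = 0.0295), and Eif3k, an initiation factor subunit, at -0.79 (SE 0.20, limma adjusted p = 0.0447). Fau read 11.38, 10.88 and 11.43 at E10.5, 9.88, 10.57 and 10.61 at E11.5 and 10.15 and 9.81 at E12.5, with E10.5 above both later stages.

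Of 33 ribosome biogenesis genes, 2 (6.06%) were called lower from E10.5 to E12.5 on deposited values, against 1.56% of all probe sets, with a median of -0.60 and 29 below 0 (87.9%), against 57.6%. After quantile normalization 5 (15.2%) were called lower, against 2.38%, with a median of -0.53 and 29 below 0, against 55.7%. Nop2, a nucleolar RNA methyltransferase, differed by -1.07 (SE 0.27, limma adjusted p = 0.0435) deposited, and Nolc1, a nucleolar phosphoprotein, by -1.71 (SE 0.40, limma adjusted p = 0.0363). Both were also called after quantile normalization, beside Fbl, Nhp2 and Polr1b. Of 76 mitochondrial ribosomal protein genes, whose products serve the separate ribosomes of mitochondria, 2 (2.63%) were called lower deposited, against 1.56% of all probe sets, with a median of -0.56 and 70 below 0 (92.1%), against 57.6%. After quantile normalization 8 (10.5%) were called lower, against 2.38%, with a median of -0.46 and 68 below 0 (89.5%), against 55.7%. The counts of the mitochondrial and of the biogenesis genes stand beside medians over all probe sets of -0.08 deposited and -0.06 after quantile normalization.

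Of 11 tested regulators of ribosomal protein synthesis, Eif4ebp1, the repressor of cap-dependent translation that mTOR inactivates, was the only one called lower from E10.5 to E12.5, on both scales, and 7 of the 11 were below 0 (63.6%) on each, against 57.6% and 55.7% of all probe sets. It read 11.28, 11.06 and 13.29 at E10.5, 10.04, 10.03 and 10.10 at E11.5 and 9.35 and 8.90 at E12.5, and its stages did not overlap. The difference was -2.75 (SE 0.55, limma adjusted p = 0.018) deposited and -2.51 (SE 0.51, limma adjusted p = 0.0236) after quantile normalization, with array C of E10.5 again the highest. Mycn, a Myc family transcription factor, was called higher after quantile normalization only, at 1.19 (SE 0.29, limma adjusted p = 0.0434), and was 1.13 on deposited values.

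The tissue on the arrays also differed between stages in markers of other cells. All 6 newborn neuron markers were called higher at E12.5 than at E10.5 on the deposited values, against 3.08% of all probe sets. After quantile normalization 5 of the 6 were, against 3.72%. Arrays A and B of E12.5 read 4.71 and 7.44 for Stmn2, 4.49 and 7.42 for Tubb3 and 5.04 and 9.06 for Dcx. Atoh7, Neurod1 and Neurog2 read 8.75 or more on both. The mean of 5 pigment epithelium markers ranged from 7.30 to 8.66 at E10.5, from 9.03 to 10.4 at E11.5 and from 9.32 to 10.05 at E12.5. That of 4 tested periocular mesenchyme markers was between 4.81 and 4.99 at E10.5, between 6.55 and 7.86 at E11.5 and between 7.08 and 7.84 at E12.5. For 5 tested erythroid markers the mean was between 7.90 and 8.04, between 7.77 and 8.31, and between 6.997 and 7.45. These means hide single genes. From E10.5 to E12.5 on the deposited values, Tyr differed by 5.61 and Tyrp1 by 2.60, while 1 of the 5 pigment epithelium markers, Mitf, was below 0, at -1.18. Among the erythroid markers, Hbb-bh1 was the only one called (-3.12, limma adjusted p = 0.0042), and Hbb-y and Alas2 were at -0.07 and 0.04. Of 5 lens markers 2 were tested, and their mean was between 3.91 and 4.45 at E10.5, between 5.75 and 6.29 at E11.5 and between 5.82 and 6.22 at E12.5. Of these, Cryab, which encodes an alpha crystallin, was called higher at E11.5 than at E10.5, by 3.89 (SE 0.36, limma adjusted p = 0.0016), and at E12.5, by 4.10 (SE 0.40, limma adjusted p = 0.0002). Cryaa, the gene of the other alpha crystallin, read between 3.70 and 4.31 on all arrays, and the other 3 were below the filter. The mean of 5 macrophage markers was between 5.68 and 6.22, between 6.14 and 6.37, and between 6.29 and 6.84, and the 1 tested of 5 endothelium markers read between 6.07 and 6.98, between 5.93 and 6.38, and between 7.23 and 7.43, with none of either list called.

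The difference between the 3′ and 5′ probe sets of Gapdh, a measure of how far amplification reached, was between 4.19 and 4.71 at E10.5, between 3.35 and 4.63 at E11.5 and between 4.78 and 5.17 at E12.5. The part of cell makeup and of RNA amplification in the differences of the ribosomal protein genes was not tested.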

How the data were processed

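The authors deposited a table of log2 signals with 45101 probe sets in rows and the 8 arrays in columns. The submitters' processing notes name GCOS 1.4. Probe summarization and scaling between arrays are not given in the sources used here. RNA was amplified by repeated in vitro transcription before labelling, per the labels' protocols, which favours 3′ ends.

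Stages were taken from the titles. Control probe sets (64) and the lowest 40% by mean signal were left out, which kept 27022. One linear model of stage over all 8 arrays was fitted with limma 3.58.1 in R 4.3.3 (empirical Bayes with a trend, 5 residual degrees of freedom), on deposited and on quantile normalized values, with Benjamini-Hochberg adjustment over all probe sets kept. The procedure was tested on simulated data. Symbols came from the platform annotation and sequences from RefSeq tables of GRCm38.p6. The number of arrays limits the precision.

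Genes named in the text are the called members, per comparison the 5 highest and the 5 lowest, the 5 brightest and the 5 dimmest, paralogue pairs, genes with discordant probe sets and a few of known role. From the other lists, up to 4 called genes each were named, or those of smallest p. Members and lists were chosen with earlier results of these data known. Alternatives were other scalings, filters, models, probe set choices and left-out arrays.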

Additional observations from a re-analysis of the deposited data

How the results depend on the processing

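The median over the members from E10.5 to E12.5 was -0.48 as deposited and -0.19 after quantile normalization. This shift exceeded the SD of the array medians within these stages (0.13 and 0.18). It was smaller than the within-stage SD pooled over all stages (0.49), to which the E11.5 arrays add the widest spread (SD 0.76). The deposited difference was itself about as large as the pooled SD. The median lay between -0.59, without E12.5 A, and -0.13, without E12.5 B after quantile normalization. It was below 0 in every alternative that does not centre the arrays on the members themselves. From E10.5 to E11.5 it was -0.89 as deposited with -1.18 to -0.52 over fits with 1 array left out, but -0.072 after quantile normalization, also with the replicate block, and between -0.102 and -0.012 with 1 array left out after it. From E11.5 to E12.5 it was 0.43 as deposited, with 0.07 to 0.67 over fits with 1 array left out, but turned to -0.094 after quantile normalization, to -0.15 with the replicate block added, and to between -0.18 and -0.03 with 1 array left out. The count of member probe sets called from E10.5 to E12.5, 5 as deposited, was 9 after quantile normalization, 2 with no filter on signal, 12 with array weights, 8 without E10.5 C and E11.5 A together (chosen after seeing the data), 0 with the replicate block on either scale, 0 to 7 with 1 array left out and 0 to 8 with 1 array left out after quantile normalization. From E11.5 to E12.5 the count of 0 became 1 after quantile normalization, 30 with array weights and 0 to 2 with 1 array left out after quantile normalization, and from E10.5 to E11.5 it became 32 with array weights. For any stage difference, the count of 1 became 3 after quantile normalization, 2 with no trend, 47 with array weights, 3 with each array centred on the members' median (chosen after seeing the data) and 0 with median centring, a pseudocount of 64, no filter or the replicate block on either scale. It was 0 to 3 with 1 array left out and 0 to 4 with 1 left out after quantile normalization. The array weights gave E11.5 B a weight of 218 against 0.16 to 1.2 for the others and did not converge, so those counts rest on that array. Of all 27022 probe sets that fit called 14230 for any stage difference, against 47 of the 95 members. From E11.5 to E12.5 it called 8533 higher and 3987 lower, from E10.5 to E11.5 3850 lower and from E10.5 to E12.5 1438 lower. For any stage difference 844 of all probe sets were called after quantile normalization and 613 with no trend. From E10.5 to E12.5, 652 were called lower without E10.5 C and E11.5 A together. Deviations from the stage means correlated at -0.394 for the A arrays of E10.5 and E11.5 and at -0.377 for the C arrays. The other pairs of arrays with the same letter lay between -0.139 and 0.127. Deviations within a stage sum to 0, so these values cannot show whether the replicate letters pair the arrays. The replicate block leaves 3 residual degrees of freedom. The cause of these changes was not tested. With 2 arrays at E12.5 and no detection calls, a difference in a dim probe set is known only from its log2 value.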

Other observations

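The 110 probe sets annotated with several symbols, at least 1 of which is a ribosomal protein symbol, were not members. Of these, 103 passed the filter, and their median signal was 13.29, 12.995 and 13.30 on the E10.5 arrays, 11.51, 12.17 and 12.63 on the E11.5 arrays and 12.89 and 12.66 on the E12.5 arrays. Their median difference from E10.5 to E12.5 was -0.39 deposited, with 0 called by limma, against 1.56% of all probe sets lower and 3.08% higher. After quantile normalization it was -0.13, with 3 of the 103 called lower and 0 higher, against 2.38% and 3.72% of all probe sets. From E10.5 to E11.5 their median was -0.85 deposited and -0.04 after quantile normalization.

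The control probe set for the 3′ part of 18S ribosomal RNA, the RNA of the small subunit, read 11.8, 12.2 and 12.8 at E10.5, 10.8, 10.6 and 12.3 at E11.5 and 11.2 and 11.6 at E12.5. The E11.5 array C lay within the E10.5 range, and the other later arrays lay below it.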
